A study of Mus musculus with 9 samples.

Results

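Round spermatids were compared with pachytene spermatocytes, the haploid cells of the testis with the meiotic cells that give rise to them, in 6 of the 9 RNA sequencing libraries of a mouse series. The members were the 3 libraries labelled round spermatids and the 3 labelled pachytene, and every other library of the series came from spermatogonia. All germ cells were taken from testes of adult male mice on a normal diet. The labels give no strain, genotype, treatment or cell isolation method, and neither do they say whether each library came from its own animal, although the series calls the 3 libraries of a stage biological replicates. The p-values below thus reflect library-to-library spread, which may be technical. Each library was made from 1 µg of total RNA with a stranded kit and read as 100 bp pairs, per the labels' protocols.

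A pachytene spermatocyte holds its paired homologous chromosomes along the synaptonemal complex, repairs the DNA breaks of meiotic recombination and keeps its X and Y chromosomes transcriptionally silent in the sex body. After both meiotic divisions the round spermatid builds the acrosome, the secretory vesicle that opens at fertilization, starts the flagellum, and replaces its histones by transition proteins and then protamines. Many spermatid mRNAs are stored for weeks before they are translated, so an mRNA level in a round spermatid is not a level of its protein.

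Levels are FPKM, fragments per kilobase of transcript scaled to library size, as the authors deposited them in an mRNA table and in a separately scaled lncRNA table. Every ± after a level is an SD over 3 libraries. Differences are log2 (round spermatid over pachytene) on FPKM + 0.1 from a limma model, each with its standard error (SE). A feature is called, and described as having risen or fallen, at an adjusted p under 0.05 and a change of at least 2-fold. Of 17987 features tested in the mRNA table, 4915 rose (27.3%) and 2418 fell (13.4%), which is 40.8% called in either direction. Among the 14808 protein-coding features 3829 rose (25.9%) and 2012 fell (13.6%), with a median log2 of 0.10. Every count of genes below is to be read against those protein-coding shares.

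The libraries of a stage were alike. Correlations of log2 levels between libraries were 0.979 to 0.984 within round spermatids, 0.981 to 0.983 within pachytene and 0.858 to 0.864 between the stages. The labels were set beside marker genes. These genes were chosen with earlier results of these data known, so they are no independent check of the labels. All 9 round spermatid markers (Prm1, Prm2, Tnp1, Tnp2, Hils1, Acrv1, Spaca1, Catsper1 and Lyzl6) rose. Of the 7 pachytene markers, Hist1h1t, Piwil1, Mybl1, Hormad1 and Sycp3 were lower in round spermatids beyond the threshold, while Spag6 (log2 -0.57) and Ccna1 (log2 0.69) were not called.

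Transcripts listed as markers of somatic testis cells were detected in both stages at unequal levels. The summed level of 24 Sertoli cell markers was 248, 239.7 and 254 FPKM in round spermatids, against 675, 698 and 678 FPKM in pachytene, and 17 of the 24 fell. The sum of 13 Leydig cell markers was 103, 100.1 and 112 FPKM in round spermatids, against 213, 224 and 220.4 FPKM in pachytene. The other somatic lists went the other way: the sum of 19 peritubular myoid and interstitial markers was 264.5 to 274 FPKM in round spermatids and 52.7 to 56.7 FPKM in pachytene, and that of 24 endothelial, macrophage and blood markers was 52.0 to 56.0 FPKM in round spermatids and 21.8 to 23.8 FPKM in pachytene. No Sertoli, Leydig, myoid or interstitial marker was at 0 in all libraries of a stage, and of the endothelial, macrophage and blood markers 2 were at 0 in all round spermatid libraries and 1 in all pachytene libraries. In bulk RNA, fewer cells of a type and less RNA per cell cannot be told apart. Each of these sums was higher in every spermatogonia library than in any library of the stages compared. The cells that these transcripts came from, and their part in the results below, were not tested.

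The split between rises and falls depended on the scaling of the libraries. Of all calls in the mRNA table, 67.0% were rises on the deposited values and 55.9% after rescaling every library to the same summed protein-coding FPKM, which called 4282 higher and 3379 lower. That rescaling moved the median log2 of all features by -0.20, and equal library medians moved it by 0.10. Summed protein-coding levels were 578851, 577244 and 591202 FPKM in round spermatids, against 492638, 503078 and 494116 FPKM in pachytene. A log2 value near 0 therefore has no fixed sign.

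Some of the highest transcripts of the testis changed by less than 2-fold between the stages while others changed more. The highest mean in both stages was that of Ldhc, the testis lactate dehydrogenase subunit, with 4506, 4459.7 and 4653 FPKM in round spermatids, against 4075, 4398 and 4247 FPKM in pachytene spermatocytes, and its log2 was 0.10. The libraries of the stages were close and were not called apart. Meig1, which is needed for building the manchette-dependent flagellum, had 2585 ± 122 FPKM in round spermatids and 2128 ± 85.9 FPKM in pachytene spermatocytes, and the chaperonin subunit gene Tcp1 had 2116 ± 56.1 FPKM in round spermatids and 2209 ± 58.5 FPKM in pachytene spermatocytes. Crisp2, an acrosome and tail protein gene, Fabp9, a testis lipid-binding protein gene, and Gstm5, a glutathione transferase gene, were also among the 10 highest in round spermatids and were not called. The remaining 4 of those 10 were Prm1, Tnp1, Prm2 and Tnp2. Meig1 (log2 0.28, limma adjusted p = 0.00183) and Gstm5 (log2 0.48, limma adjusted p = 2.56e-05) were higher in round spermatids and missed only the 2-fold limit.

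The protamine and transition protein genes, which package sperm DNA, rose together. Prm1 (chr16:10796326-10805839 on GRCm38) had 4122, 4145 and 3989.7 FPKM in round spermatid replicates 1 to 3, against 393, 463 and 369.8 FPKM in pachytene replicates 1 to 3. Tnp1 (chr1:73015074-73015909) had 4079, 3705 and 3796 FPKM in round spermatid replicates 1 to 3, against 347, 353 and 319.9 FPKM in pachytene replicates 1 to 3. In both genes every round spermatid library lay about an order of magnitude above every pachytene library. The changes were log2 3.33 ± 0.19 SE, limma adjusted p = 3.66e-07 for Prm1 and log2 3.51 ± 0.22 SE, limma adjusted p = 6.89e-07 for Tnp1. Prm2 (log2 3.31), Tnp2 (log2 3.49) and Prm3 (log2 3.47) lie next to Prm1 in the protamine cluster of chromosome 16 and rose by like amounts. Together Prm1, Prm2, Tnp1 and Tnp2 made up 2.54, 2.47 and 2.42% of the summed protein-coding FPKM in round spermatids, against 0.272, 0.292 and 0.261% in pachytene.

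**Figure D1:**
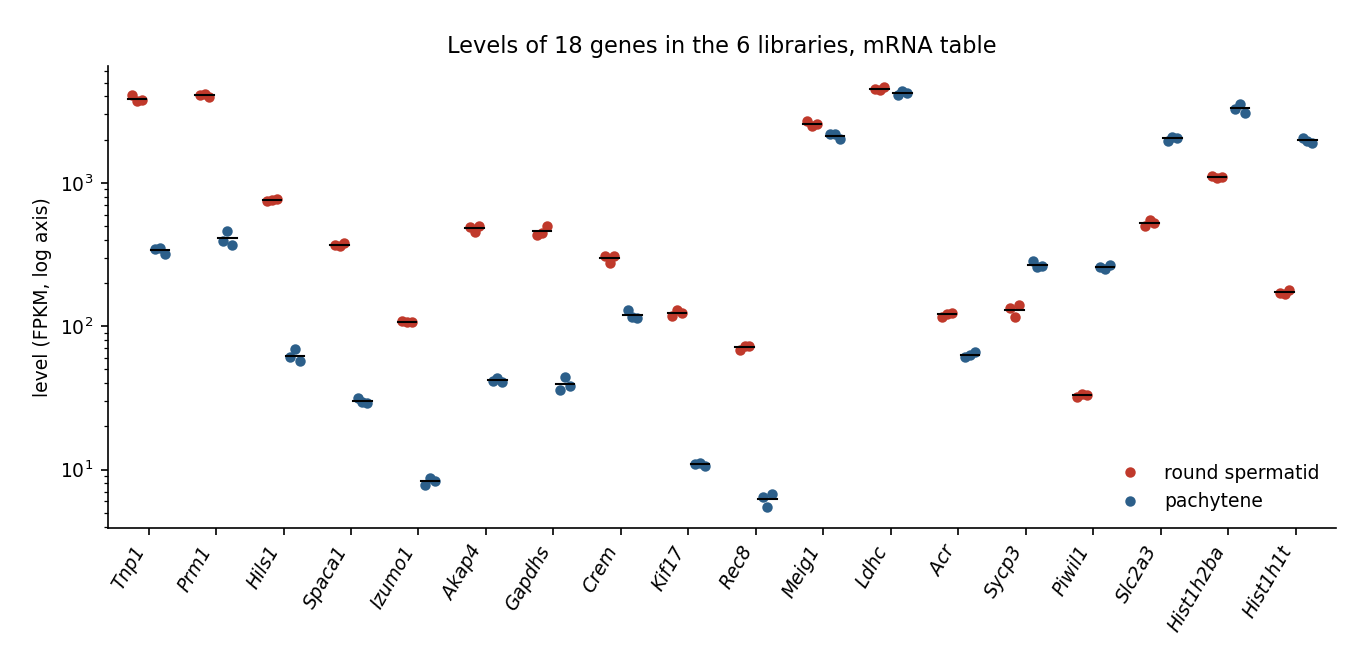
Levels of 18 genes in each of the 6 libraries (FPKM, logarithmic axis); red points are round spermatid libraries, blue points pachytene libraries, and black lines the mean of 3. The stages did not overlap for genes such as Tnp1, Izumo1 and Rec8 (higher in round spermatids) or Hist1h1t and Piwil1 (lower), and lay close together for Ldhc and Meig1.

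Of 30 genes of spermatid DNA packaging 28 were tested, and of these, 13 rose, 5 fell and 10 were not called, with a median log2 of 0.37. Linker histones changed in opposite directions. Hist1h1t, the linker histone of spermatocytes, had 171, 167 and 178 FPKM in round spermatids, against 2059, 1961 and 1900.3 FPKM in pachytene spermatocytes. It was the second largest fall among protein-coding features of at least 10 FPKM that were detected in all 6 libraries (log2 -3.52 ± 0.09 SE, limma adjusted p = 3.51e-09). Its stages did not overlap. Hils1, a spermatid linker histone-like protein, averaged 756 ± 11.3 FPKM in round spermatids and 62.4 ± 5.93 FPKM in pachytene spermatocytes (log2 3.60), and H1fnt, a linker histone variant of the spermatid nucleus, averaged 208 ± 0.549 FPKM in round spermatids and 18.4 ± 1.05 FPKM in pachytene spermatocytes (log2 3.49). The testis histone H2B gene Hist1h2ba was the second highest pachytene transcript, with 1093 ± 16.2 FPKM in round spermatids and 3295 ± 233 FPKM in pachytene spermatocytes (log2 -1.59), while the testis H2A gene Hist1h2aa was not called at log2 0.06. The short histone H2A genes H2afb1 (log2 3.46) and H2afb3 (log2 2.62) and the remodeller gene Chd5 (log2 3.31) rose. The ubiquitin ligase gene Rnf8, the acetyltransferase gene Kat5 and the demethylase gene Kdm3a, all of which act on spermatid chromatin, fell by 1.19, 1.03 and 1.02 on the log2 scale. With equal library medians, which add 0.10 to each log2, 3 genes of the list fell in place of 5, without Kat5 and Kdm3a. Brdt, the testis bromodomain reader, was not called (log2 -0.05).

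Among 26 tested histone genes of the wider list, 9 rose, 5 fell and 12 were not called. Near-identical copies make single histone genes uncertain, since how shared reads were counted is not given in the sources used here. Hist1h1a (log2 2.46), Hist1h3a (2.61) and Hist1h1d (2.04) were the largest rises among those above 10 FPKM in round spermatids. The variant genes H2afz (log2 -1.16) and H2afy (log2 -1.56) fell.

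Sizes of rises had a second peak at a log2 of 3 to 4, and those of falls had none. Of 6402 protein-coding features with a mean of at least 10 FPKM in round spermatids, 352 were higher by a log2 of 1 to 1.5, 228 by 1.5 to 2, 174 by 2 to 2.5 and 177 by 2.5 to 3. The number then went up to 345 at 3 to 3.5 and 373 at 3.5 to 4, and 8 reached 4. Of 6232 features with at least 10 FPKM in pachytene, 752 were lower in round spermatids by 1 to 1.5, 301 by 1.5 to 2, 107 by 2 to 2.5, 37 by 2.5 to 3, and 13 by 3 to 3.5. The level in a pachytene library seldom went below a fixed share of the round spermatid level: the 1st percentile of that share was 7.11, 7.17 and 7.13% in pachytene replicates 1 to 3, and the 5th percentile was 8.44, 8.72 and 8.34%. In the other direction, the 1st percentile of a round spermatid library's level over the pachytene mean was 18.64, 18.98 and 19.12%, and the 5th was 31.3, 30.6 and 32.2%. The cause of the near-constant share in pachytene was not tested. Rises such as those of Prm1, Izumo1 and Akap4 lie close to that share. After that share of the round spermatid mean was subtracted from each pachytene library, the median log2 was 5.99 in place of 3.50 for the acrosome genes described below, 5.40 in place of 3.39 for the serine kinases, 3.25 in place of 2.32 for the sheath and fibre genes and 4.31 in place of 3.07 for the X- and Y-linked spermatid genes. Rises of this size therefore depend on how that share is treated.

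**Figure D2:**
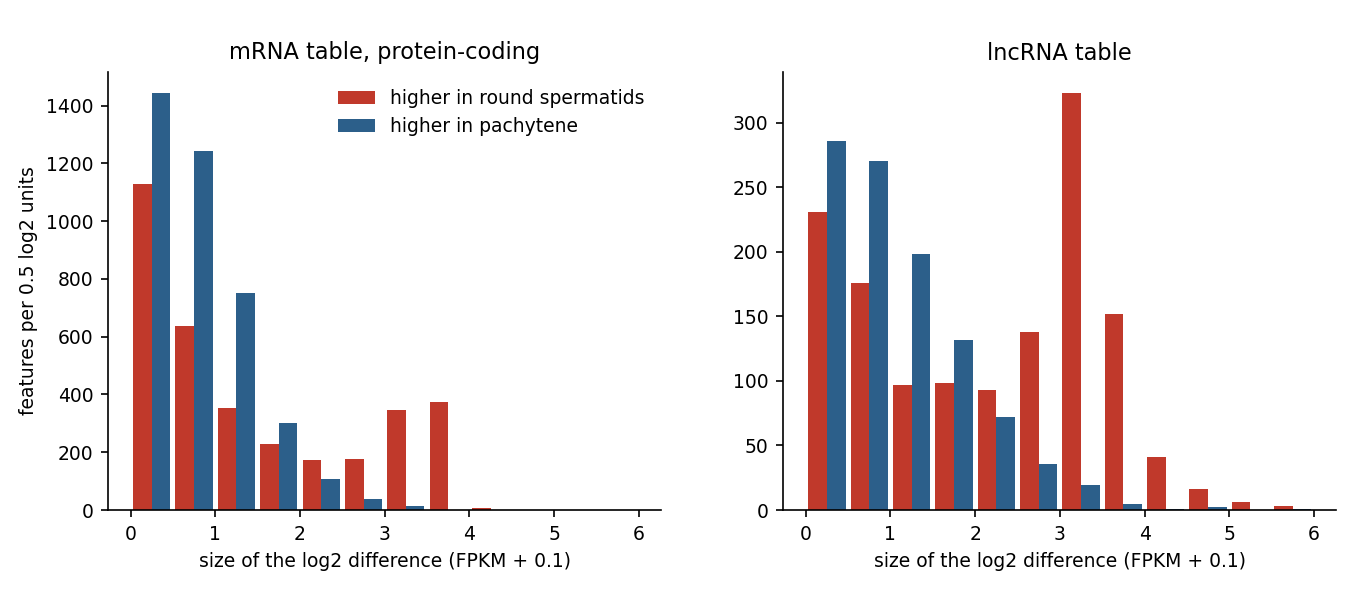
Number of features by size of the log2 difference, in steps of 0.5, for features of at least 10 FPKM in the higher stage; red bars are features higher in round spermatids, blue bars features higher in pachytene, with protein-coding features of the mRNA table on the left and the lncRNA table on the right. Red bars form a second peak between 3 and 4 (345 and 373 features on the left, 323 and 152 on the right), and blue bars fall off steadily.

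Regulators of spermatid transcription were examined next. Of 29 tested genes, 14 rose, 4 fell and 11 were not called, with a median log2 of 0.76. Crem, which encodes the activator of many spermatid promoters, had 308, 275 and 308 FPKM in round spermatids, against 131, 115 and 114 FPKM in pachytene spermatocytes (log2 1.31 ± 0.07 SE, limma adjusted p = 1.9e-07). Every round spermatid library was above every pachytene library. Fhl5, whose product is a coactivator of CREM, averaged 263 ± 12.5 FPKM in round spermatids and 21.4 ± 1.19 FPKM in pachytene spermatocytes (log2 3.62). Kif17, whose kinesin moves that coactivator out of the nucleus, averaged 124 ± 5.61 FPKM in round spermatids and 10.9 ± 0.247 FPKM in pachytene spermatocytes (log2 3.49). Sox5 (log2 3.55), Sox30 (log2 1.25) and the orphan nuclear receptor gene Nr6a1 (log2 2.10) rose, as did Taf7l, an X-linked subunit gene of the general transcription factor TFIID (log2 2.82).

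The RFX factors, which act on genes of cilia and flagella, did not change alike. Rfx1 (log2 3.37), Rfx3 (log2 2.34) and Rfx4 (log2 1.04) rose, and Rfx2, the member needed for spermiogenesis in mice, was not called, with 95.6 ± 3.01 FPKM in round spermatids and 90.8 ± 2.67 FPKM in pachytene spermatocytes (log2 0.07). Mybl1, the activator gene of pachytene transcription, fell by 1.51 on the log2 scale, Atf4, a stress response factor gene, by 1.42, and Gmcl1, a germ cell nuclear envelope gene, by 2.49.

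The palindrome TGACGTCA, the cAMP response element that CREM binds, was looked for in promoters of RefSeq genes (GRCm38.p6), from 250 bases before to 50 bases after the gene start, on both strands. It stood in 2.96% of 2806 matched genes that rose, 2.87% of 1500 that fell, 3.69% of 6827 not called and 1.79% of all 32851 windows of that length. The shares of genes that rose and fell thus lay close together. Of the list members with a window, the palindrome stood in 7 of 195 that rose, 0 of 70 that fell and 14 of 292 not called. It is shown in capitals in the promoters of 4 genes of the acrosome, head and coactivator transport, 5′ to 3′ on the plus strand:
Izumo1, chr7:45621689-45621748: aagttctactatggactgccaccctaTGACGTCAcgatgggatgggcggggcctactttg
Spag4, chr2:156065150-156065209: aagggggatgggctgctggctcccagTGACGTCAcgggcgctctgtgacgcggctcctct
Kif17, chr4:138262139-138262198: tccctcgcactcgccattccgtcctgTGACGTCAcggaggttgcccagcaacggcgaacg
Ccin, chr4:43983428-43983487: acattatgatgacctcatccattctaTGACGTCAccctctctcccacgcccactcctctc
The element starts 96 bases before the RefSeq gene start in Izumo1, 37 in Spag4, 86 in Kif17 and 50 in Ccin. In GENCODE M21, Kif17 and Spag4 start before the element, at chr4:138250435 and chr2:156065175. A match is a description of the letters and not a binding site shown in these cells.

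Acrosome and sperm-egg interaction genes fell into distinct groups. Of 58 names 54 were in the table and passed the level filter. Of these, 33 rose, 1 fell and 20 were not called, and the median log2 was 3.50. Of the 33 that rose, 30 did so by a log2 between 3.36 and 3.79. Izumo1, whose product on the sperm head binds the egg receptor, had 109, 106 and 106 FPKM in round spermatids, against 7.83, 8.79 and 8.34 FPKM in pachytene spermatocytes (log2 3.67 ± 0.09 SE, limma adjusted p = 3.53e-09). Spaca1, an acrosomal membrane protein gene, averaged 369.6 ± 10.8 FPKM in round spermatids and 29.99 ± 1.32 FPKM in pachytene spermatocytes, and Spam1, the sperm hyaluronidase gene, averaged 106 ± 4.69 FPKM in round spermatids and 8.03 ± 0.0545 FPKM in pachytene spermatocytes. No pachytene library reached the level of a round spermatid library in these genes. The sperm lysozyme-like genes Lyzl6 (log2 3.79) and Lyzl1 (log2 3.73), Acrv1 (log2 3.68) and Zp3r (log2 3.73), both genes of acrosomal matrix proteins, and the calicin gene Ccin (log2 3.47) behaved alike.

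The 20 acrosome genes that were not called each averaged over 30 FPKM in pachytene. Acr, which encodes acrosin, the main acrosomal protease, had 116, 121 and 124 FPKM in round spermatids, against 60.7, 62.9 and 65.7 FPKM in pachytene spermatocytes, a log2 of 0.93 that misses the 2-fold limit although the stages did not overlap. Dkkl1 had 1326 ± 35.03 FPKM in round spermatids and 1121 ± 46.7 FPKM in pachytene spermatocytes, Zpbp2, a zona-binding protein gene, 359 ± 12.9 FPKM in round spermatids and 270.1 ± 6.97 FPKM in pachytene spermatocytes, and Adam2, a fertilin subunit gene, 274 ± 8.38 FPKM in round spermatids and 419 ± 4.25 FPKM in pachytene spermatocytes. Spata16 (log2 -0.03) and Dpy19l2 (log2 0.04), which are needed for forming and anchoring the acrosome, lay near 0. The 1 gene that fell was Gopc, a Golgi scaffold gene needed for acrosome formation, with 5.79 ± 0.212 FPKM in round spermatids and 27.7 ± 0.847 FPKM in pachytene spermatocytes (log2 -2.24).

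Accessory structures of the tail showed the same contrast between rises of one size and genes already high in pachytene. Of 30 tested genes of the outer dense fibres, fibrous sheath and mitochondrial sheath, 19 rose, 0 fell and 11 were not called, with a median log2 of 2.32. Akap4, the X-linked main scaffold gene of the fibrous sheath, had 491, 454 and 498 FPKM in round spermatids, against 41.4, 43.2 and 41.1 FPKM in pachytene spermatocytes (log2 3.52 ± 0.10 SE, limma adjusted p = 5.89e-09). Its partner Akap3 averaged 417 ± 7.41 FPKM in round spermatids and 35.7 ± 1.002 FPKM in pachytene spermatocytes and the outer dense fibre gene Odf1 averaged 889 ± 11.8 FPKM in round spermatids and 95.2 ± 3.02 FPKM in pachytene spermatocytes (log2 3.22). The stages were wide apart in all of these. Odf2, another fibre gene, rose less, with 1748 ± 50.3 FPKM in round spermatids and 775 ± 9.79 FPKM in pachytene spermatocytes (log2 1.17), and Gpx4, the selenoprotein of the mitochondrial sheath, was not called, with 1793 ± 29.9 FPKM in round spermatids and 1066 ± 45.7 FPKM in pachytene spermatocytes (log2 0.75).

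Testis-specific serine kinase genes rose nearly as a whole, 9 of 10 on the list, which also holds a few kinases and partners that are not of that family. Tssk1 (log2 3.36), Tssk2 (3.55), Tssk3 (3.58), Tssk4 (3.65), Tssk5 (3.64) and Tssk6 (2.96) all rose, with their substrate gene Tsks (3.42). Tssk2 averaged 375 ± 6.18 FPKM in round spermatids and 32.04 ± 0.658 FPKM in pachytene spermatocytes. Mast2 was the member not called (log2 0.09).

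The axoneme is the microtubule core of the tail. Of 49 names 41 were in the table and 40 passed the level filter, and of these, 13 rose, 5 fell and 22 were not called, with a median log2 of 0.16. After equal library sums 6 rose and 12 fell and the median was -0.07, so the balance of this list depends on the scaling. The falls included the dynein heavy chain genes Dnah8, with 243 ± 1.95 FPKM in round spermatids and 600.3 ± 56.1 FPKM in pachytene spermatocytes (log2 -1.30), and Dnah2 (log2 -1.24), and the radial spoke gene Rsph1, with 481 ± 8.36 FPKM in round spermatids and 1114 ± 15.4 FPKM in pachytene spermatocytes (log2 -1.21). Dnah3 was the exception among the dyneins of that level, with 38.7, 39.2 and 40.7 FPKM in round spermatids, against 3.14, 2.95 and 3.19 FPKM in pachytene spermatocytes (log2 3.63). The tektin genes, whose products line the doublet microtubules, rose: Tekt4 by a log2 of 2.46, Tekt2 by 2.38, Tekt3 by 1.25 and Tekt5 by 1.23. Tekt1 lay at the limit, with a log2 of 1.00.

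Ion channel subunits of the tail were not alike either. Of 27 tested genes of CatSper, the sperm calcium channel, and of related signalling, 12 rose, 1 fell and 14 were not called, with a median log2 of 0.44. The pore-forming subunit genes Catsper1 (log2 3.66), Catsper3 (3.72) and Catsper4 (3.71) rose. Catsper2, the remaining pore subunit gene, had 181, 186 and 192 FPKM in round spermatids, against 128, 128 and 128 FPKM in pachytene spermatocytes and was not called (log2 0.54). The auxiliary subunit genes Catsperb (log2 -0.43), Catsperd (-0.32), Catsperg1 (-0.68) and Catsperg2 (-0.60) were not called. Efcab9, a calcium sensor gene of the channel, averaged 397 ± 11.7 FPKM in round spermatids and 33.6 ± 2.79 FPKM in pachytene spermatocytes (log2 3.56), and the egg-activating phospholipase gene Plcz1 averaged 189 ± 11.8 FPKM in round spermatids and 16.3 ± 1.06 FPKM in pachytene spermatocytes (log2 3.53). The proton channel gene Hvcn1 fell, with 2.87 ± 0.153 FPKM in round spermatids and 6.29 ± 0.449 FPKM in pachytene spermatocytes (log2 -1.11), a call that was lost with a pseudocount of 1 FPKM.

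**Figure D3:**
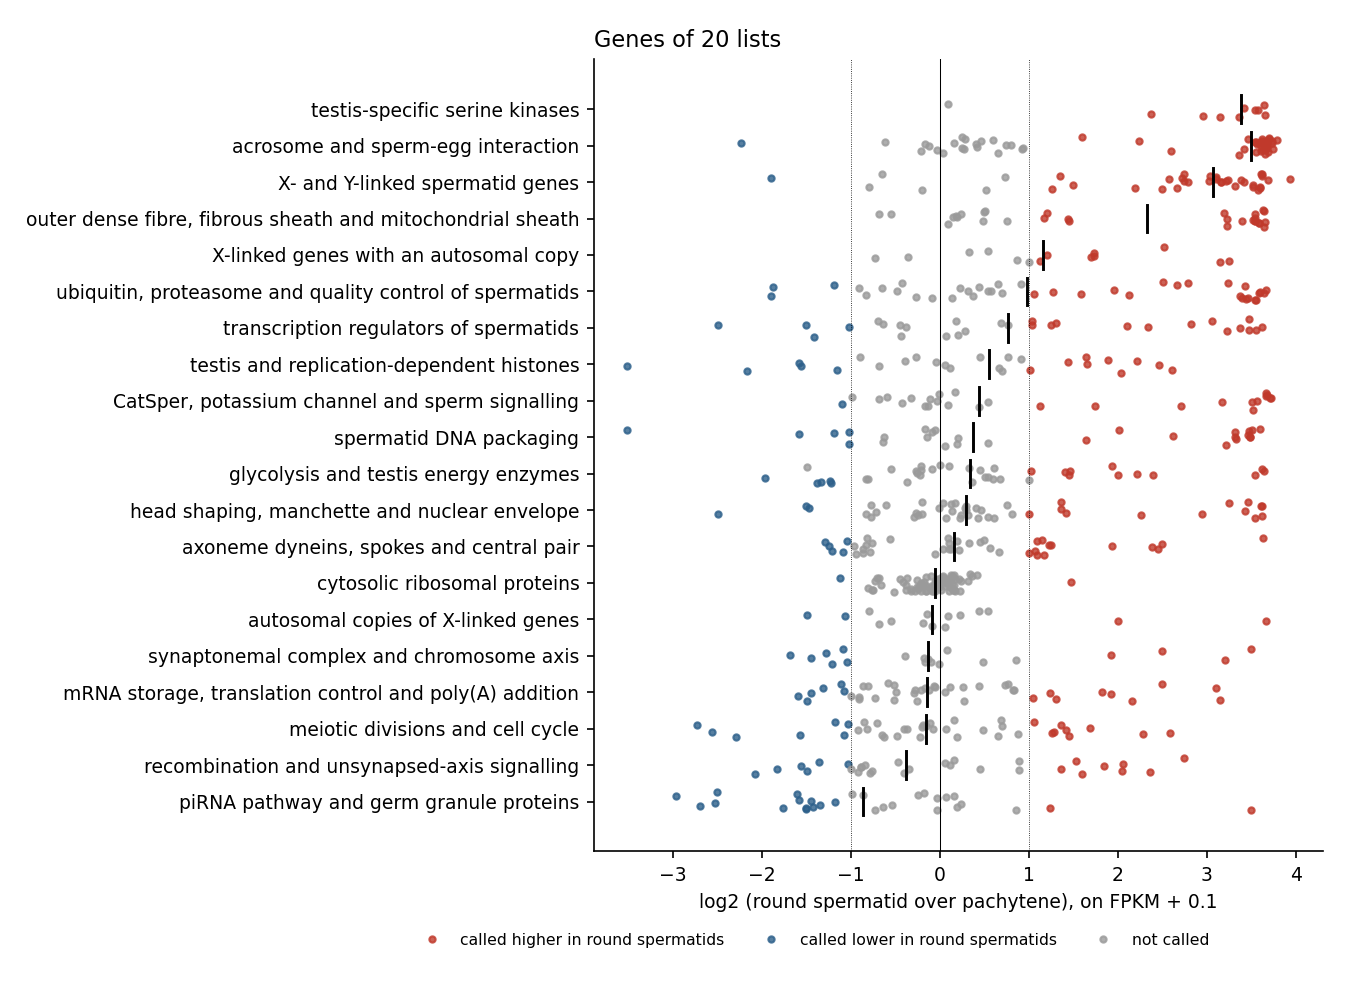
Log2 (round spermatid over pachytene) of every tested gene of 20 lists, 1 point per gene; red points rose, blue points fell, grey points were not called, black bars are list medians and dotted lines the 2-fold limits. The acrosome, sheath and kinase lists crowd between 3 and 4, the ribosomal protein genes lie around 0, and 13 of 29 piRNA pathway genes fell.

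Of 49 genes of head shaping, the manchette and the nuclear envelope 45 were tested, and of these, 13 rose, 3 fell and 29 were not called, with a median log2 of 0.29. The spermatid SUN-domain genes Spag4 and Sun5, which act at the nuclear envelope, averaged 259 ± 13.1 FPKM in round spermatids and 20.95 ± 2.06 FPKM in pachytene spermatocytes for Spag4 and 168 ± 0.871 FPKM in round spermatids and 13.6 ± 0.835 FPKM in pachytene spermatocytes for Sun5. Lmnb2, the lamin gene that gives rise to the spermatid lamin, rose (log2 3.42), whereas Lmnb1 was not called (log2 -0.72). Hook1, which positions the manchette, rose by a log2 of 1.41. The transport gene Ift20 fell, with 38.95 ± 1.96 FPKM in round spermatids and 108 ± 2.28 FPKM in pachytene spermatocytes (log2 -1.47), and the other intraflagellar transport genes on the list (Ift74, Ift81, Ift88, Ift140 and Ift172) were not called.

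Of 38 tested genes of glycolysis and testis energy metabolism, 11 rose, 5 fell and 22 were not called, with a median log2 of 0.34, shares near those of all protein-coding features. Gapdhs, the sperm form of the glycolytic dehydrogenase, had 433, 445 and 500.2 FPKM in round spermatids, against 35.8, 44.5 and 38.3 FPKM in pachytene spermatocytes (log2 3.54 ± 0.14 SE, limma adjusted p = 2.99e-08), and Aldoart2 and Aldoart1, retrogenes of aldolase, rose by 3.64 and 3.62 on the log2 scale. Pgk2, the autosomal phosphoglycerate kinase retrogene, averaged 704 ± 26.2 FPKM in round spermatids and 175 ± 3.46 FPKM in pachytene spermatocytes (log2 2.00). Hexokinase 1, Hk1, averaged 442 ± 13.3 FPKM in round spermatids and 116 ± 3.09 FPKM in pachytene spermatocytes (log2 1.93). The glucose transporter gene Slc2a3 went the other way and was among the 10 highest pachytene transcripts, with 501, 546 and 523 FPKM in round spermatids, against 1957, 2086 and 2068 FPKM in pachytene spermatocytes (log2 -1.96 ± 0.07 SE, limma adjusted p = 1.93e-08). Its libraries were well apart. The testis cytochrome c gene Cyct fell by 1.39 on the log2 scale, and Hk2, Pfkl and Ldhb, all low in both stages, fell too. The lactate carrier gene Slc16a7 rose (log2 2.40), and Ldha (log2 -0.21) was not called.

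Genes of ubiquitin transfer, the proteasome and protein quality control included many testis-specific members. Of 40 tested, 20 rose, 3 fell and 17 were not called, with a median log2 of 0.98. The testis ring finger ligase genes Rnf151 (log2 3.64), Rnf133 (3.55) and Rnf148 (3.44) and the cullin adaptor gene Klhl10 (3.55) rose. Pdilt, a testis disulfide isomerase-like chaperone gene, averaged 163 ± 6.62 FPKM in round spermatids and 12.8 ± 0.351 FPKM in pachytene spermatocytes. Psma8, the testis proteasome subunit gene of meiotic cells, fell, with 96.3, 87.9 and 102 FPKM in round spermatids, against 354, 347 and 349.6 FPKM in pachytene spermatocytes (log2 -1.88 ± 0.09 SE, limma adjusted p = 1.11e-07). No round spermatid library reached the lowest pachytene library.

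Genes of the chromosome axis and recombination divided by gene. Of 23 synaptonemal complex and axis genes 19 were tested, and of these, 4 rose, 6 fell and 9 were not called, with a median log2 of -0.13. Sycp3, the axial element gene, had 134, 116 and 141 FPKM in round spermatids, against 282, 257 and 264 FPKM in pachytene spermatocytes (log2 -1.04), and Sycp2, its partner, averaged 56.1 ± 5.18 FPKM in round spermatids and 153 ± 14.2 FPKM in pachytene spermatocytes (log2 -1.45). Both were lower in each round spermatid library than in any pachytene library. With equal library medians 4 genes of the list fell in place of 6, and Sycp3 was not among them. Sycp1, of the central region, was not called (log2 0.08), and Syce2, also of the central element, rose, with 166 ± 8.07 FPKM in round spermatids and 43.5 ± 3.37 FPKM in pachytene spermatocytes (log2 1.93). Rec8, the meiotic cohesin subunit gene, had 68.03, 73.01 and 72.2 FPKM in round spermatids, against 6.48, 5.48 and 6.74 FPKM in pachytene spermatocytes (log2 3.50 ± 0.12 SE, limma adjusted p = 1.32e-08), and Tex15, which acts in break repair and piRNA-directed silencing, averaged 87.6 ± 6.75 FPKM in round spermatids and 9.41 ± 0.788 FPKM in pachytene spermatocytes (log2 3.21).

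Of 30 tested genes of recombination and of signalling on unsynapsed axes, 8 rose, 6 fell and 16 were not called, with a median log2 of -0.38. After equal library sums 12 of them fell. The falls included Spo11, which makes the breaks, with 26.4 ± 1.06 FPKM in round spermatids and 94.3 ± 2.41 FPKM in pachytene spermatocytes (log2 -1.83), the crossover gene Mlh3 (log2 -2.08), and Atr and Mdc1, kinase and adaptor genes of sex body silencing (log2 -1.49 and -1.36). Among the 8 that rose, Tex11 averaged 14.03 ± 1.39 FPKM in round spermatids and 2.01 ± 0.303 FPKM in pachytene spermatocytes, Dmc1, the meiotic strand-exchange recombinase gene, 9.24 ± 0.606 FPKM in round spermatids and 1.71 ± 0.09196 FPKM in pachytene spermatocytes, and Prdm9, which places the breaks, 4.21 ± 0.602 FPKM in round spermatids and 0.948 ± 0.2795 FPKM in pachytene spermatocytes.

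Of 39 tested genes of the meiotic divisions and the cell cycle, 9 rose, 7 fell and 23 were not called, with a median log2 of -0.15. Cks2, a cyclin-dependent kinase subunit gene of meiosis, had 84.5, 76.6 and 84.7 FPKM in round spermatids, against 478, 505 and 468 FPKM in pachytene spermatocytes (log2 -2.56 ± 0.10 SE, limma adjusted p = 3.25e-08). Its stages did not overlap. Cdk2 (log2 -2.29) and Fbxo43, an inhibitor gene of the anaphase-promoting complex (log2 -2.73), fell as well. Ccnb1, the mitotic cyclin gene, rose, with 97.9 ± 2.95 FPKM in round spermatids and 30.3 ± 0.678 FPKM in pachytene spermatocytes (log2 1.69), and so did the phosphatase genes Cdc25c (log2 2.59) and Cdc25a (log2 1.46). Hspa2, a chaperone gene that CDK1 depends on in mouse spermatocytes, was not called (log2 -0.48).

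The piRNA pathway was the germ cell list with the lowest median (log2 -0.86). Of 29 tested genes, 2 rose, 13 fell and 14 were not called. Piwil1, the Piwi protein gene of pachytene piRNAs, had 32.2, 33.7 and 33.03 FPKM in round spermatids, against 258, 252 and 267 FPKM in pachytene spermatocytes (log2 -2.97 ± 0.08 SE, limma adjusted p = 3.53e-09). Every round spermatid library was far below every pachytene library. The Tudor-domain genes Tdrd5 and Tdrd1 averaged 16.2 ± 0.1704 FPKM in round spermatids and 106 ± 1.49 FPKM in pachytene spermatocytes for Tdrd5 and 26.2 ± 0.902 FPKM in round spermatids and 152 ± 4.69 FPKM in pachytene spermatocytes for Tdrd1, and Pld6, whose product cuts piRNA precursors at mitochondria, averaged 20.6 ± 1.77 FPKM in round spermatids and 118 ± 5.05 FPKM in pachytene spermatocytes. Henmt1, which methylates piRNA ends, fell by 1.58 on the log2 scale.

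Among the 14 members of the piRNA and germ granule list not called were the helicase genes Ddx4 (log2 -0.03) and Ddx25 (0.24), Mael (0.16), Tdrd6 (-0.24), Rnf17 (-0.04) and Tdrd7 (0.86). Mael averaged 1331 ± 17.8 FPKM in round spermatids and 1195 ± 28.04 FPKM in pachytene spermatocytes. Gtsf1, a Piwi partner gene, rose, with 555 ± 20.1 FPKM in round spermatids and 236 ± 8.46 FPKM in pachytene spermatocytes (log2 1.24).

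Genes of mRNA storage, translation control and poly(A) addition gave 9 rises, 6 falls and 27 not called of 42 tested, a median log2 of -0.15. The mRNA-binding protein genes Ybx2 and Ybx3, which hold stored spermatid mRNAs, averaged 931 ± 43.7 FPKM in round spermatids and 1045 ± 62.7 FPKM in pachytene spermatocytes for Ybx2 and 734 ± 2.799 FPKM in round spermatids and 801 ± 19.5 FPKM in pachytene spermatocytes for Ybx3 and were not called. The poly(A) polymerase retrogene Papolb averaged 269 ± 15.7 FPKM in round spermatids and 130.1 ± 2.005 FPKM in pachytene spermatocytes (log2 1.05). Members of 1 family went apart: Cpeb3 (log2 2.16), Cpeb1 (1.31) and Cpeb2 (1.24) rose, and Cpeb4 (0.26) was not called. Ptbp2, a splicing repressor gene of germ cells, fell, with 46.4 ± 2.88 FPKM in round spermatids and 141 ± 1.23 FPKM in pachytene spermatocytes (log2 -1.60). The inhibitors of poly(A)-binding protein Paip2 (log2 1.82) and Paip2b (log2 1.92) rose.

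Cytosolic ribosomal protein genes stayed within narrow bounds. Of 79 tested, 1 rose, 1 fell and 77 were not called, with a median log2 of -0.05, which was 0.05 with equal library medians. The rise was X-linked Rpl39, with 28.4, 21.9 and 21.5 FPKM in round spermatids, against 7.41, 8.7004 and 9.595 FPKM in pachytene spermatocytes (log2 1.47), and its testis-expressed autosomal copy Rpl39l was not called, with 629 ± 19.11 FPKM in round spermatids and 568 ± 24.2 FPKM in pachytene spermatocytes. The fall was Rps27a (log2 -1.13).

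Among protein-coding features detected in all 6 libraries, the largest rises above 10 FPKM included Dcn, Ssxb6, Fgf10, Gm21655, Srsx, Gm3495 and Gm12695, with log2 values of 4.46 down to 3.87. Dcn, the decorin gene of connective tissue, had 17.4, 15.8 and 17.9 FPKM in round spermatids, against 0.828, 0.734 and 0.512 FPKM in pachytene spermatocytes, the largest of these (log2 4.46 ± 0.59 SE, limma adjusted p = 0.000105), and it is also on the interstitial marker list. Ssxb6 and Srsx are X-linked and belong to copied gene families. Fgf10, a growth factor gene, had 12.6, 10.8 and 11.5 FPKM in round spermatids, against 0.9999, 0.419 and 0.569 FPKM in pachytene spermatocytes (log2 4.01). No round spermatid library overlapped a pachytene library in these genes.

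Under the same limits, the 8 largest falls were Pou5f2, Hist1h1t, Hist3h2a, Mgll, Chst1, Hist2h2ab, Sap30 and AI467606. Pou5f2, a POU transcription factor gene of spermatocytes (chr13:78024902-78026295 on GRCm38), had 5.804, 6.15 and 5.75 FPKM in round spermatids, against 101, 102 and 102 FPKM in pachytene spermatocytes (log2 -4.08 ± 0.07 SE, limma adjusted p = 1.27e-09). It was the only protein-coding feature of at least 10 FPKM in pachytene whose fall reached a log2 of 4. Mgll, the monoglyceride lipase gene, averaged 10.7 ± 0.386 FPKM in round spermatids and 112 ± 4.68 FPKM in pachytene spermatocytes (log2 -3.38), and Chst1, a sulfotransferase gene, averaged 4.48 ± 0.203 FPKM in round spermatids and 46.6 ± 0.953 FPKM in pachytene spermatocytes (log2 -3.35). Sap30, a subunit gene of a histone deacetylase complex, averaged 6.17 ± 0.471 FPKM in round spermatids and 59.96 ± 1.799 FPKM in pachytene spermatocytes (log2 -3.26).

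The X and Y chromosomes, silent in pachytene spermatocytes by textbook knowledge, held the highest shares of rises. Of 625 tested X-linked protein-coding features, 61.1% rose and 6.24% fell, with a median log2 of 1.47. Of 52 tested Y-linked features, 96.2% rose and 0 fell, with a median log2 of 3.18. On the autosomes, 24.0% of 14131 features rose, from 18.9% on chromosome 8 to 36.7% on chromosome 14. In each library the median log2 level of X-linked features was set against that of autosomal ones, and the difference was -1.58, -1.67 and -1.56 in round spermatids, against -2.72, -2.80 and -2.74 in pachytene. The stages did not overlap. The X-linked median was thus higher by 1.15 log2 units relative to the autosomes in round spermatids, with an exact two-sided permutation p of 0.1, the smallest that 3 libraries against 3 can give. It stayed below the autosomal median in each round spermatid library. The size of the stage difference depended on the processing. It was 0.72 with a pseudocount of 1 FPKM, 0.94 without the level filter and 1.27 with a filter at 1 FPKM. After the share of the round spermatid level described above was subtracted from the pachytene libraries, it was 1.69.

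**Figure D4:**
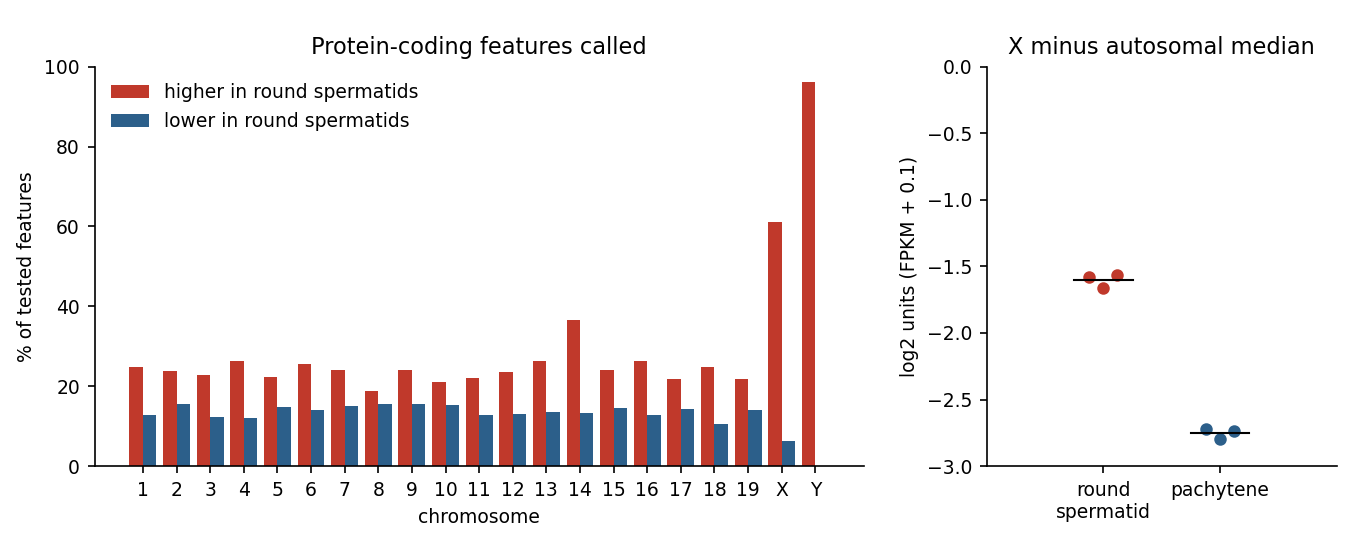
Left, share of tested protein-coding features called higher (red) and lower (blue) in round spermatids on each chromosome, in %; right, median log2 level of X-linked minus autosomal protein-coding features in each library, with the mean of 3 as a black line. X (61.1%) and Y (96.2%) stand above the autosomes (18.9 to 36.7%) on the left, and the 3 round spermatid libraries (-1.67 to -1.56) lie above the 3 pachytene libraries (-2.80 to -2.72) on the right.

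X- and Y-linked genes known from spermatids had a median log2 of 3.07. Of 59 names on the list 46 were in the table and 38 passed the level filter, and of these 32 rose, 1 fell and 5 were not called. Many belong to copied families whose members share reads, so single values are uncertain. Cypt2, a cysteine-rich perinuclear theca gene, had 155, 132 and 142 FPKM in round spermatids, against 13.01, 10.3 and 9.94 FPKM in pachytene spermatocytes (log2 3.68). Tsga8 averaged 521 ± 4.75 FPKM in round spermatids and 48.6 ± 4.16 FPKM in pachytene spermatocytes, the actin-related gene Actrt1 averaged 20.9 ± 0.844 FPKM in round spermatids and 1.599 ± 0.0711 FPKM in pachytene spermatocytes and the perinuclear theca gene Cylc1 averaged 27.3 ± 2.13 FPKM in round spermatids and 2.13 ± 0.0394 FPKM in pachytene spermatocytes. Slxl1 (log2 3.59) on the X and Sly (log2 3.21) on the Y, families that act on sex chromosome transcription in mouse spermatids, both rose. The exception was Spin2c, below 1 FPKM in all 6 libraries (log2 -1.90), and that call was lost with a pseudocount of 1 FPKM.

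Y-linked genes outside the large copied families were higher in round spermatids as well. Eif2s3y, a translation initiation factor gene, had 67.8, 64.5 and 73.1 FPKM in round spermatids, against 7.71, 8.17 and 7.66 FPKM in pachytene spermatocytes (log2 3.11 ± 0.06 SE, limma adjusted p = 1.56e-09). Uba1y, of the ubiquitin-activating enzyme, averaged 11.3 ± 0.939 FPKM in round spermatids and 1.605 ± 0.148 FPKM in pachytene spermatocytes (log2 2.75), and the zinc finger genes Zfy2 and Zfy1 averaged 4.66 ± 0.495 FPKM in round spermatids and 0.486 ± 0.05705 FPKM in pachytene spermatocytes for Zfy2 and 4.81 ± 0.314 FPKM in round spermatids and 0.449 ± 0.0536 FPKM in pachytene spermatocytes for Zfy1. Pachytene libraries were the lower ones each time. Erdr1, which is also present on the X, rose least of the Y-linked features above 10 FPKM (log2 1.70). Among X-linked genes detected in all 6 libraries the largest falls above 10 FPKM were Gm14569 (log2 -1.74), Nxf3 (log2 -1.45), Gm9112 (log2 -1.22) and Etd (log2 -1.13). The call of Etd was lost without pachytene replicate 2 (log2 -0.99).

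Some X-linked housekeeping genes have an autosomal copy that is active while the X is silent. Of 14 such X-linked genes, 8 rose, 0 fell and 6 were not called, with a median log2 of 1.16. Of 15 autosomal copies, 2 rose, 2 fell and 11 were not called, with a median log2 of -0.09, whose sign turns with equal library medians. Cstf2, an X-linked polyadenylation factor gene, had 35.7, 37.5 and 34.1 FPKM in round spermatids, against 4.06, 3.54 and 4.22 FPKM in pachytene spermatocytes, whereas its autosomal copy Cstf2t had 20.8, 21.6 and 22.2 FPKM in round spermatids, against 60.2, 60.4 and 62.04 FPKM in pachytene spermatocytes. The X-linked gene rose (log2 3.15) and the copy fell (log2 -1.50). Ube2a rose (log2 3.25) and its copy Ube2b was not called (log2 0.23), and Utp14a rose (log2 2.52) while Utp14b was not called (log2 0.55). Pgk1 (log2 1.00, just short of the limit) had 5.08 ± 0.0945 FPKM in round spermatids and 2.497 ± 0.1002 FPKM in pachytene spermatocytes, far below the levels of its copy Pgk2 given above. G6pd2, the retrogene of the X-linked dehydrogenase gene G6pdx, averaged 32.96 ± 0.593 FPKM in round spermatids and 2.4997 ± 0.0869 FPKM in pachytene spermatocytes (log2 3.67) and G6pdx was not called (log2 -0.36).

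Genes listed as markers of spermatogonia moved both ways between these later stages. Of 30 tested, 11 rose, 6 fell and 13 were not called, with a median log2 of 0.58. Their summed level was 752, 765 and 769 FPKM in round spermatids, against 814, 855 and 815 FPKM in pachytene. In the spermatogonia libraries the sum was 745.6, 734 and 603 FPKM, below every library of both later stages. The list therefore did not mark spermatogonia by its sum in this series. Without Dmrtb1, the highest of these genes, the sum was 293, 279 and 286 FPKM in round spermatids, against 474, 489 and 474 FPKM in pachytene. Gfra1, the receptor gene of the stem cells, averaged 6.001 ± 0.129 FPKM in round spermatids and 1.19 ± 0.05296 FPKM in pachytene spermatocytes (log2 2.25), Kit, the receptor gene of differentiating spermatogonia, 5.197 ± 0.157 FPKM in round spermatids and 1.55 ± 0.285 FPKM in pachytene spermatocytes (log2 1.69), and Stra8, which starts meiosis, 8.21 ± 0.472 FPKM in round spermatids and 2.97 ± 0.223 FPKM in pachytene spermatocytes (log2 1.44). Id4, another stem cell gene, had 12.02, 11.4 and 12.96 FPKM in round spermatids, against 73.4, 74.5 and 77.8 FPKM in pachytene spermatocytes and fell (log2 -2.62). Dmrtb1 itself was not called (log2 0.45).

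Clu, a clusterin gene high in Sertoli cells, averaged 41.4 ± 1.52 FPKM in round spermatids and 182 ± 4.59 FPKM in pachytene spermatocytes (log2 -2.14), and Insl3, the Leydig cell hormone gene, averaged 14.2 ± 4.29 FPKM in round spermatids and 65.9 ± 3.79 FPKM in pachytene spermatocytes (log2 -2.25). In spermatogonia Insl3 averaged 3.45 ± 0.157 FPKM, below both of these stages, whereas the sum of the Leydig list was highest there. Of 24 tested endothelial, macrophage and blood markers, 10 rose, 2 fell and 12 were not called. The complement gene C1qa, expressed by macrophages, averaged 5.69 ± 1.08 FPKM in round spermatids and 0.442 ± 0.268 FPKM in pachytene spermatocytes, and C1qc and C1qb rose by a log2 of 3.73 and 3.30. The lysozyme gene Lyz2 averaged 12.97 ± 0.995 FPKM in round spermatids and 1.12 ± 0.07398 FPKM in pachytene spermatocytes (log2 3.43). The falls were the macrophage receptor gene Mrc1, with 2.73 ± 0.189 FPKM in round spermatids and 5.58 ± 0.352 FPKM in pachytene spermatocytes (log2 -1.01), and the erythroid heme synthesis gene Alas2 (log2 -1.26), and both calls were lost with a pseudocount of 1 FPKM. The 1 Sertoli marker that rose was the keratin gene Krt18, below 1 FPKM in both stages (log2 1.14), a call lost with that pseudocount too. The sum of the myoid and interstitial list rested on Actg2, a smooth muscle actin gene, with 196, 189 and 195 FPKM in round spermatids, against 16.5, 16.9 and 17.1 FPKM in pachytene spermatocytes, and without it the other 18 summed to 75.4 to 78.4 FPKM in round spermatids and 36.2 to 39.8 FPKM in pachytene.

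Long non-coding RNAs were tested on their own scale, which is not comparable with that of the mRNA table. Of 4009 tested features 902 rose (22.5%) and 361 fell (9%), which is 31.5% called, with a median log2 of 0.38. With equal library sums 783 rose and 534 fell, 59.5% of calls in place of 71.4%, and the median log2 moved by -0.29 (by -0.16 with equal library medians). The spread was wider than in the mRNA table: the median SE of a log2 difference was 0.66, against 0.13 there, and correlations within a stage were 0.871 to 0.898 in round spermatids and 0.872 to 0.880 in pachytene. By the ratio of stage means, the excess of rises between a log2 of 3 and 4 was present here too. Among lncRNAs of at least 10 FPKM in round spermatids and detected in pachytene, 323 lay at 3 to 3.5 and 152 at 3.5 to 4, but 66 reached 4 or more. On the model's scale, which keeps RNAs not detected in pachytene, 204 of the 902 called rises had a log2 of at least 4. Of 117 X-linked lncRNA features 34.2% rose.

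The largest rises of lncRNAs at 10 FPKM or more in each round spermatid library are given with their positions on GRCm38. The intergenic RNA 4930412B13Rik (chr2:117821928-117909136) had 81.9, 76.2 and 80.3 FPKM in round spermatids, against 3.51, 1.19 and 4.15 FPKM in pachytene spermatocytes (log2 4.88 ± 0.57 SE, limma adjusted p = 0.000325). 9130204K15Rik (chr11:79781979-79872394) had 103, 113 and 109 FPKM in round spermatids, against 1.999, 11.6 and 2.36 FPKM in pachytene spermatocytes (log2 4.79), and pachytene replicate 2 stood above the others of its stage. Gm11782 (log2 4.51), RP23-245G9.1 (4.45), RP24-114M8.3 (4.43) and 4930579D09Rik (4.36) completed the 6 largest. The call of RP24-114M8.3 (limma adjusted p = 0.0448) was lost without any 1 of the 6 libraries, with an adjusted p of 0.0635 to 0.122, and that of 9130204K15Rik with a pseudocount of 0.01 FPKM, at an adjusted p of 0.0900.

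Of the 6 largest falls of lncRNAs, 3 are given in full. Gm14244 (chr2:127691899-127700488), annotated as antisense, had 361, 325 and 412 FPKM in round spermatids, against 3871, 3482 and 5016 FPKM in pachytene spermatocytes (log2 -3.48 ± 0.28 SE, limma adjusted p = 7.02e-05). Gm10619 (chr7:73781429-73816503) had 311, 269.7 and 507 FPKM in round spermatids, against 3677, 3064 and 5794 FPKM in pachytene spermatocytes (log2 -3.53). 1700040D17Rik (chr3:94409395-94412919) had 88.5, 72.4 and 71.1 FPKM in round spermatids, against 999, 981 and 1151 FPKM in pachytene spermatocytes (log2 -3.76). The stages did not overlap in any of these. Gm16278 (log2 -3.97), Gm15199 (-3.56) and 1520401A03Rik (-3.42) completed the 6 largest falls. The gene annotation used here gives 1520401A03Rik as protein-coding, 1 of 51 such features tested in the lncRNA table.

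Some of the most abundant RNAs of the lncRNA table were called or not depending on whether the spermatogonia libraries, where they were near 0, entered the shared spread. Gm27192, an X-linked RNA, had 9357, 11689 and 14399 FPKM in round spermatids, against 752, 1189 and 1128 FPKM in pachytene, with 0, 15.96 and 7.01 FPKM in spermatogonia. Its log2 was 3.54 ± 1.61 SE with all 9 libraries (limma adjusted p = 0.125) and 3.54 ± 0.26 SE with the 6 libraries of the stages compared (adjusted p = 0.000428). Gm9999 (log2 3.36) and Gm15517 (log2 3.29) likewise had adjusted p values of 0.0810 and 0.152 with 9 libraries and of 0.000167 and 0.000541 with 6. Both are annotated as protein-coding. Of 1283 lncRNA features called with 6 libraries, 1109 were among the 1263 called with 9, and 174 were not. For mRNA features, 7280 were called in both fits, of 7333 with 9 libraries and 7351 with 6.

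Of 44 named lncRNAs 28 were in the table and 25 passed the filter, and of these 6 rose, 6 fell and 13 were not called. Host transcripts of small nucleolar RNAs fell in part: Snhg3 had 688, 680.2 and 885 FPKM in round spermatids, against 2407, 2301 and 3152 FPKM in pachytene spermatocytes (log2 -1.80 ± 0.21 SE, limma adjusted p = 0.000334), and Snhg12 (log2 -1.49) and Snhg5 (-1.09) fell too, while Gas5 (-0.24), Snhg1 (-0.13) and Snhg6 (-0.42) were not called. The feature named Snhg7 fell as well (log2 -2.06), but it is annotated as a small nucleolar RNA and its value is not shown to be that of a host transcript. Imprinted RNAs went both ways. Nespas, antisense in the Gnas cluster, fell (log2 -1.69), as did Dnm3os, a microRNA host transcript (log2 -1.95), and H19 (log2 1.24), Rian (1.49) and Mirg (2.09) rose. Pvt1, next to Myc, averaged 481 ± 67.5 FPKM in round spermatids and 188 ± 26.4 FPKM in pachytene spermatocytes (log2 1.35). The nuclear RNA Malat1 was not called, with 5804 ± 3895 FPKM in round spermatids and 5846 ± 3026 FPKM in pachytene spermatocytes, and neither was Neat1 (log2 -1.55, limma adjusted p = 0.0582).

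Xist and Ftx, RNAs of the X-inactivation centre, rose. Xist, which silences the X chromosome in female cells, had 1.66, 4.65 and 2.096 FPKM in round spermatids, against 0.135, 0 and 0.512 FPKM in pachytene spermatocytes (log2 3.44). Ftx, an activator of Xist, had 38.3, 44.7 and 47.9 FPKM in round spermatids, against 10.2, 4.53 and 8.91 FPKM in pachytene spermatocytes (log2 2.53). In both RNAs the lowest round spermatid library was above the highest pachytene library. Jpx was not called (log2 2.47, limma adjusted p = 0.207).

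Each tested lncRNA was set beside the tested protein-coding gene that overlaps it on the opposite strand. Of 332 pairs whose lncRNA rose, the coding gene rose in 187 (56.3%) and fell in 11 (3.31%). Of 163 pairs whose lncRNA fell, the coding gene fell in 59 (36.2%) and rose in 14 (8.59%). Among 1285 pairs with a lncRNA not called, the coding gene rose in 25.1% and fell in 11.3%. Pairs are not replicates and no test was made. The sources used here do not say whether counting kept the strands apart, so reads of a lncRNA and its overlapping partner cannot be told apart. Where the pair does not overlap but starts within 10 kb, the coding gene rose in 42 of 77 pairs whose lncRNA rose (54.5%) and fell in 1, and it fell in 10 of 66 pairs whose lncRNA fell (15.2%) and rose in 5. Among 325 such pairs with a lncRNA not called, the coding gene rose in 22.5% and fell in 11.7%. The share of 15.2% thus lay near that of pairs with a lncRNA not called.

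Pairs of named genes show both patterns, and were chosen after their values were seen. Lyzl4os averaged 3435 FPKM in round spermatids and 283 FPKM in pachytene in the lncRNA table (log2 3.60), and the lysozyme-like acrosome gene Lyzl4, on the opposite strand, rose by a log2 of 3.54 in the mRNA table. Gm16794, opposite to Atr, fell with it (log2 -1.65 for the lncRNA and -1.49 for Atr). The intergenic RNA 4930507D10Rik starts within 10 kb of Spaca3, an acrosomal protein gene, and rose by a log2 of 3.69, with 3.67 for Spaca3. Pairs in opposite directions existed too. Grip1os3 fell (log2 -2.46) while Grip1, a scaffold protein gene, rose (log2 3.35), and Pip5k1bos rose (log2 3.56) while the lipid kinase gene Pip5k1b fell (log2 -1.29). Cep83os starts 78 bases from the start of the centriole gene Cep83, and averaged 543 FPKM in round spermatids and 2922 FPKM in pachytene (log2 -2.56), whereas Cep83 rose (log2 1.13).

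**Figure D5:**
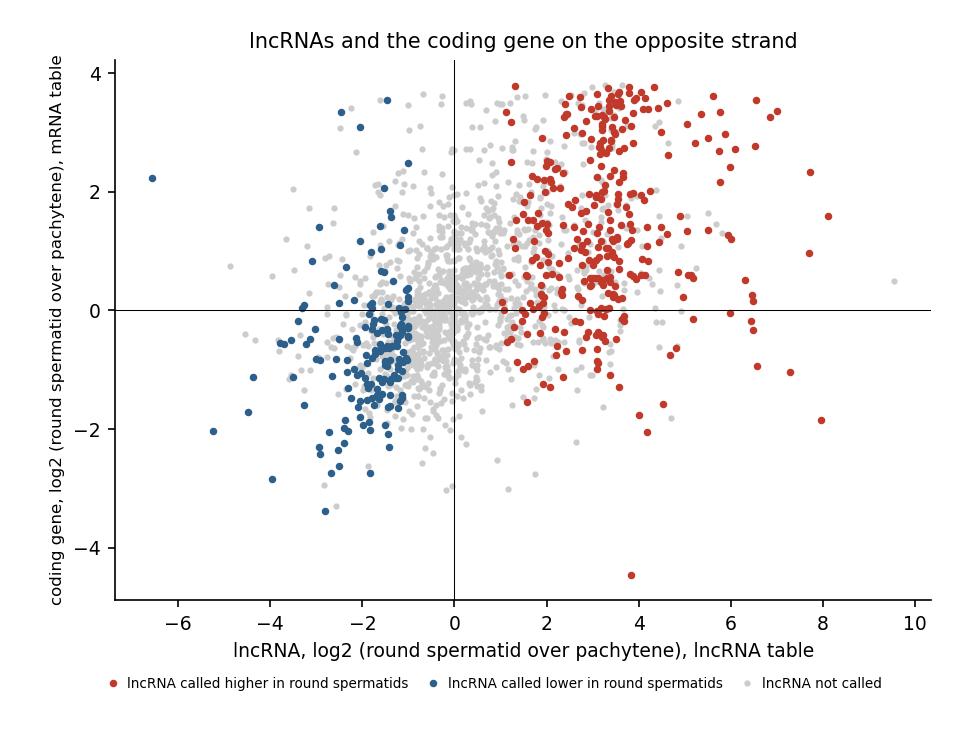
Log2 (round spermatid over pachytene) of lncRNAs (lncRNA table, horizontal) and of the protein-coding gene that overlaps each on the opposite strand (mRNA table, vertical), 1 point per pair; red and blue points are lncRNAs that rose and fell, grey points lncRNAs not called. Of 332 red points, 187 have a coding gene that rose and 11 one that fell, and of 163 blue points 59 have a coding gene that fell.

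The tables could be compared where a feature was tested in both. Of 1623 such features, 624 were called in the same direction in both tables and 0 in opposite directions, 36 were called in the lncRNA table alone and 217 in the mRNA table alone. They rest on the same libraries and are not independent. Features of small RNAs were often at 0 in a library. Of 139 tested small nucleolar RNA features 13 rose and 6 fell, of 53 small nuclear RNA features 2 rose and 5 fell, and of 28 microRNA precursor features 2 rose and 0 fell, and 10 of the 19, all 7 and both of these called features were at 0 in a library.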

How the data were processed

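RNA sequencing libraries of mouse germ cells were compared: 3 of round spermatids and 3 of pachytene spermatocytes, with the 3 of spermatogonia entering the fit for its spread. The authors deposited FPKM values per library in an mRNA table of 39336 features and a lncRNA table of 5385. Per the submitters' processing notes, the tools were Cuffdiff 2.2.1, TopHat2 2.0.12, Trim Galore and FastQC, with the build mm10. The sources used here give neither sequencing depth nor a strand setting for the counting, so no counting interval is given.

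Features of at least 0.5 FPKM in at least 3 of the 9 libraries were tested with limma 3.58.1 (R 4.3.3, mean trend) on log2(FPKM + 0.1), each table by itself, with Benjamini-Hochberg adjustment over the table. Fold changes on this scale understate those of low genes. Calls needed an adjusted p under 0.05 and a 2-fold change. The fit was tested on simulated data. Another 31 mRNA features had a blank in 1 or more libraries and were not tested. Symbols and chromosomes were those the authors deposited. Gene types, strands, starts and ends came from GENCODE M21 (GRCm38) by gene ID, which held 38505 mRNA and 5189 lncRNA IDs, and promoters from RefSeq (GRCm38.p6).

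The comparison, the gene lists and the named genes were chosen with earlier results of these data known. The text names the 8 largest rises and 8 largest falls of at least 10 FPKM, the 10 highest genes of each stage, the most changed members of each list (4 at most, called) with any exceptions, 4 rises and 4 falls on the X, called Y-linked features, the 6 largest rises and 6 largest falls of lncRNAs, and called known lncRNAs. Some genes that this rule picks are not reported here. Other members were picked by their known roles after their values were seen. Other pseudocounts, filters, scalings, fits and left-out libraries were tried.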

Additional observations from a re-analysis of the deposited data

How the results depend on the processing

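With a library of either stage left out, 4837 to 4882 mRNA features rose and 2368 to 2461 fell, and 757 to 865 lncRNA features rose and 292 to 367 fell. The 1st percentile of a pachytene level over the round spermatid mean was 7.14% from 10 FPKM, 7.37% from 50 FPKM and 6.58% from 2 FPKM, and the cause was not tested. Subtracting that share from the pachytene libraries gave 5509 mRNA rises and 2236 falls; for lncRNAs the percentile was 0 and the subtraction was not applied. Equal library medians gave 5209 mRNA rises and 2042 falls, and 840 lncRNA rises and 450 falls. A pseudocount of 1 FPKM gave 3408 mRNA rises and 1623 falls. Of the values of named genes under the alternatives, 2651 kept their direction and call, 44 lost the call, 1 gained it and 0 reversed. The calls lost included Ptgds without any 1 library, H19 with equal library sums, and Snhg5 without pachytene replicate 3 or round spermatid replicate 2. Of the counts over gene lists, 39 moved by over 1.5 times and 791 did not.

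Deviations of same-numbered round spermatid and pachytene libraries had correlations of -0.013 to 0.039 for mRNA features and of -0.021 to 0.099 for lncRNA features. For libraries of different numbers they were -0.044 to 0.021 and -0.078 to 0.054. Values this small, from 3 libraries per stage, cannot show whether same-numbered libraries share a source. With the replicate block, 4917 mRNA features rose and 2421 fell, and 915 lncRNA features rose and 381 fell.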

Other observations

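Protein-coding rises were dense in parts of chromosome 14. Of 25 tested features in its first 5 Mb, 22 rose, of 43 between 5 and 10 Mb 35 rose, and of 47 between 40 and 45 Mb 31 rose and 9 fell. Most are predicted genes with Gm names, 25, 35 and 42 of these features, and copied genes share reads. Of 179 tested unprocessed pseudogenes, which arise by gene duplication, 113 rose (63.1%) and 19 fell, with a median log2 of 2.199, and of 725 processed pseudogenes, which arise from reverse-transcribed mRNA, 29.7% rose.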
